A study of Mus musculus with 4 samples.

Results

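Organic anion and steroid transporters of the bone marrow stroma were followed through 5 genes of the 27998 in the matrices: Slc22a8 (ENSMUSG00000063796), Slco1a4 (ENSMUSG00000030237), Slco1a5 (ENSMUSG00000063975), Slc10a6 (ENSMUSG00000029321) and Abcg2 (ENSMUSG00000029802). The genes were picked by name because of their levels by cell type and library in these same data, so their levels and ratios are a description and carry no test. Single-cell RNA sequencing covered 4 libraries of C57BL/6 mice, 1 library per group. NHD13Tg carries Nup98-HoxD13 and is set against the wild-type library WT_A1, and Abcg2-MDS/AML is set against the wild-type library Control. Both are named as mouse models of myelodysplastic syndrome, in which blood formation is clonal and ineffective. The labels do not state the construct behind the name Abcg2-MDS/AML, the promoter of either model, the ages or the number of mice per library. Cells from crushed, collagenase-treated femora and tibiae had been sorted as negative for CD45, TER119 and CD31 and positive for CD140a and CD51, in all 4 libraries alike.

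Membrane carriers of the SLC22, SLCO and SLC10 families bring organic anions into cells, among them drugs, bile acids, prostaglandins and hormones conjugated to sulfate or glucuronide. Pumps of the ABC family use ATP to push many of the same compounds out again. These carriers are best known from kidney, liver, choroid plexus and the blood-brain barrier, and in bone marrow Abcg2 is known for marking dye-excluding stem cells and for its place in red cell precursors. Slc22a8 encodes the organic anion transporter OAT3, which exchanges organic anions for dicarboxylates at the basolateral side of the kidney tubule. Slco1a4 and Slco1a5 encode neighbouring members of the rodent OATP1A family, carriers of bile acids, steroid conjugates and thyroid hormones. Slc10a6 encodes the sodium-coupled carrier SOAT, which takes up sulfated steroids but not the common bile acids that its best-known relatives carry. Abcg2 encodes the efflux pump BCRP, which exports steroid sulfates, urate, porphyrins and many drugs.

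The sequences in front of the start sites are shown for the 4 uptake carriers because 3 of them were counted almost wholly in one stromal class and because Slco1a4 and Slco1a5 are paralogues. The 250 bases upstream of each start come from RefSeq (mouse build GRCm38.p6), are written 5′ to 3′ on the strand of the gene and lie on chromosome 19 for Slc22a8, chromosome 5 for Slc10a6 and chromosome 6 for the others. Capitals mark matches, on either strand, to 5 motifs that were searched: TTNNGCAA (C/EBP), TTCNNNGAA (STAT), CCCNNGGG (EBF), GCGTG (AhR) and TGTTCT (the core hexamer bound by the glucocorticoid receptor). Among 32817 upstream windows of this length, 9.57% hold the C/EBP motif, 7.01% the STAT motif, 11.8% the EBF motif, 28.1% the AhR motif and 16.1% the glucocorticoid receptor hexamer.
Slc22a8, chr19:8592932-8593181, plus strand: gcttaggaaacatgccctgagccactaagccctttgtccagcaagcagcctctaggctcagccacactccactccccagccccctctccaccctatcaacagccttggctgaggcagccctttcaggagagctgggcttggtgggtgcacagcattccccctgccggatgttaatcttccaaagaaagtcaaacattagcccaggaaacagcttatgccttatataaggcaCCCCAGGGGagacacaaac
Slco1a4, chr6:141856221-141856470, minus strand: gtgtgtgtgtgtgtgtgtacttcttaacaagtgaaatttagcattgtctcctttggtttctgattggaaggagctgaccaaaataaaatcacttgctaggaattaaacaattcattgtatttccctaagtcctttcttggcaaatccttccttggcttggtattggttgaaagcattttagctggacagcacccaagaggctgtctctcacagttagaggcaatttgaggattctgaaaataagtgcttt
Slco1a5 start 1, chr6:142322982-142323231, minus strand: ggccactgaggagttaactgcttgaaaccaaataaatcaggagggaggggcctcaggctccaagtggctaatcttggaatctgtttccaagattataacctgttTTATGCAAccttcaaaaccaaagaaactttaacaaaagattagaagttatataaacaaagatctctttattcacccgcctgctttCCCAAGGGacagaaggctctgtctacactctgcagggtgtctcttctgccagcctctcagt
Slco1a5 start 2, chr6:142278875-142279124, minus strand: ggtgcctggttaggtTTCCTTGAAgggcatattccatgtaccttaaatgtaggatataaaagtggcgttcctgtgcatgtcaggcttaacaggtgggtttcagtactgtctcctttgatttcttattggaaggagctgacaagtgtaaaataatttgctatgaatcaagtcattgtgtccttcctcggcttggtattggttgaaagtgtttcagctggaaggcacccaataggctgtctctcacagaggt
Slc10a6, chr5:103629404-103629653, minus strand: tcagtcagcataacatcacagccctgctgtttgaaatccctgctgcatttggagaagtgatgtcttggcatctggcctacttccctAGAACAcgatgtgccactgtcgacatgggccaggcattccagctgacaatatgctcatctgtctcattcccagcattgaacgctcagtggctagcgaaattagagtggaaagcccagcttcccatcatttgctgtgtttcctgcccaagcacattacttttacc
The Slc22a8 window holds 2 EBF matches that overlap, close to the start site. The first Slco1a5 window holds 1 C/EBP and 1 EBF match and the second 1 STAT match, while the Slco1a4 window holds none of the 5 motifs. The Slc10a6 window holds 1 glucocorticoid receptor hexamer, written there as its reverse complement. The 3 annotated starts of Abcg2, also on chromosome 6, hold none of the motifs in the windows read. A match of letters is not a bound site, and a missing match says nothing about a factor. The windows of Slco1a4 and the second Slco1a5 start were identical at 157 of 188 aligned positions (83.5%), against 125 of 233 (53.6%) for Slco1a4 and the first Slco1a5 start. Chromium libraries read the 3′ ends of transcripts, and the last 500 bases of the annotated Slco1a1, Slco1a4, Slco1a5 and Slco1a6 transcripts shared 0 runs of 60 bases in any pair. The family members Slco1a1 and Slco1a6 had 0 or 1 UMIs (unique molecular identifiers, each standing for one captured transcript) per library.

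The matrices held 36133716 to 46033790 UMIs per library. Barcodes with at least 2000 UMIs, at least 500 genes and at most 10% mitochondrial UMIs numbered 5766 in NHD13Tg, 4973 in WT_A1, 5586 in Abcg2-MDS/AML and 5158 in Control, with median UMIs of 5000, 5452, 4186 and 5058.5, and any pair of libraries shared 6 to 14 barcodes. Cells were classed by UMIs per 10000 of a few genes: Adipoq, Lepr and Esm1 at 10 or more for mesenchymal stromal cells (MSC), Bglap and Bglap2 at 100 for osteoblasts, Col9a1, Col9a2 and Col9a3 at 15 for chondrocytes, Dpt, Clec3b and Col14a1 at 8 for fibroblasts, and Thbs4 and Myoc at 30 for tendon cells. MSC that met this definition alone numbered 1803 in NHD13Tg, 631 in WT_A1, 154 in Abcg2-MDS/AML and 417 in Control. The classes were uneven between pairs: chondrocytes numbered 6 and 4 in NHD13Tg and WT_A1 but 826 and 971 in Abcg2-MDS/AML and Control, and Abcg2-MDS/AML had 6 osteoblasts. Xist, which is transcribed in females, stood at 0.0288 and 0.177 CPM in NHD13Tg and WT_A1 and at 956 and 726 CPM in Abcg2-MDS/AML and Control, so the pairs read as male and female and are not compared with each other by any test.

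The class called MSC held its markers in all libraries, but at a lower level in Abcg2-MDS/AML. The 9 MSC markers (Cxcl12, Kitl, Adipoq, Lepr, Esm1, Hp, Foxc1, Ebf3 and Grem1) summed to 37169.5 CPM (UMIs per 1000000 UMIs of the class) in NHD13Tg and 33506 CPM in WT_A1. They summed to 9841 CPM in Abcg2-MDS/AML and 32457.5 CPM in Control, with none of the 9 at 0 in any library. Adipoq, the adiponectin gene, was detected in 37.7% of the MSC of Abcg2-MDS/AML and in 97.8% of those of Control, whereas Lepr, the leptin receptor gene, was detected in 97.4% and 93.8%. The median summed score was 16.7 UMIs per 10000 in Abcg2-MDS/AML and 58.1 in Control. The MSC of the Abcg2 pair are thus unlike in composition, and how far that enters the ratios of this pair was looked at by matching the score, given beside them. Endothelial markers, of cells that the sort excluded and that are known to carry several of these transporters, summed to 14.7 to 34.5 CPM in MSC. Cdh5 was at 0 in every library. Pecam1 was the largest of these markers, at 13.0 CPM in NHD13Tg, 29.8 CPM in WT_A1, 12.9 CPM in Abcg2-MDS/AML and 18.9 CPM in Control. Markers of myeloid and other blood cells summed to 573 CPM in NHD13Tg and 2284 CPM in WT_A1, and 8 of 8 were at 0 in Abcg2-MDS/AML, against a sum of 813 CPM in Control.

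Slc22a8 was counted almost only in MSC, and there mainly in NHD13Tg. It had 274 UMIs in 1803 MSC of NHD13Tg (31.4 CPM, 27.8 to 35.3), against 8 UMIs in 631 MSC of WT_A1 (2.68 CPM, 1.16 to 5.28). Parentheses of this kind hold exact 95% Poisson intervals, which cover counting error only. There were 0 UMIs in the MSC of Abcg2-MDS/AML, where 3 counts would be 5.53 CPM, and 0 in those of Control, where 3 counts would be 1.83 CPM. Of all Slc22a8 UMIs in cells, MSC held 95.8% (274 of 286) in NHD13Tg and 88.9% (8 of 9) in WT_A1, while MSC made up 31.3% and 12.7% of the cells. In the other classes of all libraries the gene had 1 UMI in tendon cells of NHD13Tg and 1 in chondrocytes of Control. The NHD13Tg library was high and the other libraries stood at or near 0, so the order below NHD13Tg cannot be resolved at these counts.

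At single-cell level 206 of 1803 MSC of NHD13Tg (11.4%) held an Slc22a8 UMI, against 8 of 631 (1.27%) in WT_A1. Up to 5 UMIs were found in 1 cell, and 51 cells had at least 2. With every cell thinned to 2000 UMIs the shares were 6.05% in NHD13Tg and 0.317% in WT_A1. In fibroblasts of NHD13Tg, a class with higher depth (median 5909.5 UMIs, against 4443 in MSC), 0 of 1106 cells held one, which allows a share of cells with a UMI of up to 0.271% (3 cells of the total). Barcodes with 1 to 100 UMIs, read as free RNA, held 8.44 CPM of Slc22a8 in NHD13Tg and 1.64 CPM in WT_A1. The part of free RNA in the Slc22a8 levels was not tested.

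Slco1a4 was likewise counted in MSC, but its highest level was in Control. It had 0 UMIs in 154 MSC of Abcg2-MDS/AML, against 48 UMIs in 417 MSC of Control (29.3 CPM, 21.6 to 38.8). It had 21 UMIs in MSC of NHD13Tg (2.40 CPM, 1.49 to 3.67) and 10 UMIs in those of WT_A1 (3.35 CPM, 1.61 to 6.16). Control stood apart from the other libraries, and the levels of NHD13Tg and WT_A1 overlapped. The osteoblast, chondrocyte, fibroblast and tendon classes had 0 UMIs in every library. MSC held 96.0% of all Slco1a4 UMIs in Control (48 of 50), 95.5% in NHD13Tg (21 of 22) and 90.9% in WT_A1 (10 of 11). In Control 35 of 417 MSC (8.39%) were positive, or 4.80% at 2000 UMIs per cell. In chondrocytes of Control, at a median of 7277 UMIs against 3554 in MSC, 0 of 971 cells were positive, which by the same limit of 3 cells allows a share of up to 0.309%.

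Slco1a5, the paralogue, showed the same restriction to MSC with its highest level in WT_A1. It had 54 UMIs in MSC of NHD13Tg (6.18 CPM, 4.64 to 8.06), against 81 UMIs in MSC of WT_A1 (27.2 CPM, 21.6 to 33.7). It had 2 UMIs in MSC of Abcg2-MDS/AML (3.69 CPM, 0.446 to 13.3) and 16 in those of Control (9.76 CPM, 5.58 to 15.9). WT_A1 was above the other libraries, whose intervals overlapped. Positive MSC numbered 50 of 1803 in NHD13Tg (2.77%) and 71 of 631 in WT_A1 (11.3%), or 1.28% and 4.91% at 2000 UMIs per cell. In the other 4 classes its largest level was 0.653 CPM, from 2 UMIs in tendon cells of WT_A1. Fibroblasts of WT_A1, at a median of 6054.5 UMIs against 4374 in MSC, held it in 2 of 1296 cells (0.154%). MSC held 54 of all 57 Slco1a5 UMIs in NHD13Tg (94.7%) and 81 of 97 in WT_A1 (83.5%). Thus Slc22a8, Slco1a4 and Slco1a5 were each highest in a different library.

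Slc10a6 was spread over stromal classes, and its level differed between libraries in most of them. In MSC it had 235 UMIs in NHD13Tg (26.9 CPM, 23.6 to 30.6), against 16 in WT_A1 (5.36 CPM, 3.07 to 8.71), and 22 in Abcg2-MDS/AML (40.5 CPM, 25.4 to 61.4), against 2 in Control (1.22 CPM, 0.148 to 4.41). In fibroblasts it stood at 21.1 CPM in NHD13Tg and 10.5 CPM in WT_A1, and at 70.4 CPM in Abcg2-MDS/AML and 4.83 CPM in Control. In tendon cells the levels were 8.69 CPM in NHD13Tg and 6.20 CPM in WT_A1, and 36.03 CPM in Abcg2-MDS/AML and 2.32 CPM in Control. Each of these classes had its highest level in Abcg2-MDS/AML, although in MSC its interval overlapped that of NHD13Tg. Chondrocytes held 513 UMIs in Abcg2-MDS/AML (55.7 CPM, 51.0 to 60.7) and 18 in Control (2.28 CPM, 1.35 to 3.60). Osteoblasts were the exception among the classes, with 3 UMIs in 141 cells of NHD13Tg (1.58 CPM) and 0 in 92 cells of WT_A1 and 54 cells of Control. MSC held 40.0% of all Slc10a6 UMIs in NHD13Tg, where they were 31.3% of the cells, and 6.78% in WT_A1, where they were 12.7%.

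Free RNA moved with Slc10a6. It held 37.1 CPM in Abcg2-MDS/AML (30.4 to 44.9) and 0.814 CPM in Control, and 10.8 CPM in NHD13Tg and 4.36 CPM in WT_A1. In Abcg2-MDS/AML the levels in MSC (40.5 CPM) and tendon cells (36.03 CPM) therefore lay at the free RNA level, while those in fibroblasts (70.4 CPM, 60.2 to 81.8) and chondrocytes lay above it. At 2000 UMIs per cell 13.9% of fibroblasts, 10.8% of chondrocytes, 7.14% of MSC and 5.97% of tendon cells of Abcg2-MDS/AML were positive, against 0.862%, 0.412%, 0% and 0.223% in Control. The part of free RNA in these levels was not tested. In NHD13Tg the MSC level (26.9 CPM) lay above that of free RNA (10.8 CPM, 6.84 to 16.2).

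Abcg2, the efflux pump, was detected in all 5 classes and, among classes of at least 20 cells, was highest in MSC of each library. In MSC it had 346 UMIs in NHD13Tg (39.6 CPM, 35.5 to 44.0) and 139 in WT_A1 (46.6 CPM, 39.2 to 55.0), and 19 in Abcg2-MDS/AML (35.0 CPM, 21.1 to 54.7) and 132 in Control (80.5 CPM, 67.4 to 95.5). Control MSC stood above the MSC of the other libraries, whose intervals overlapped. Fibroblasts held 10.3 CPM in NHD13Tg and 10.9 CPM in WT_A1, and 14.2 CPM in Abcg2-MDS/AML and 10.6 CPM in Control. Free RNA held 12.2 CPM in NHD13Tg and 11.4 CPM in WT_A1, and 8.84 CPM in Abcg2-MDS/AML and 27.1 CPM in Control (22.1 to 33.0). Fibroblasts thus lay near free RNA in NHD13Tg and WT_A1, while in Control fibroblasts (5.31 to 19.0), chondrocytes and tendon cells lay below it. Tendon cells ranged from 5.11 to 9.47 CPM, chondrocytes held 8.57 CPM in Abcg2-MDS/AML and 12.0 CPM in Control, and osteoblasts of Control held 20.3 CPM (10.5 to 35.4). Positive MSC made up 16.0% in NHD13Tg, 19.3% in WT_A1, 10.4% in Abcg2-MDS/AML and 24.9% in Control. At 2000 UMIs per cell 7.49%, 9.67%, 5.19% and 12.9% of MSC were positive in NHD13Tg, WT_A1, Abcg2-MDS/AML and Control, and 2.26%, 2.47%, 2.82% and 1.29% of fibroblasts. Since the labels do not state the construct of the model whose name contains Abcg2, these 3′ counts do not check it.

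Cells outside the 5 definitions held Abcg2 at 10.9 CPM in Abcg2-MDS/AML and 55.4 CPM in Control, a ratio of 0.197 (0.165 to 0.232) beside 23.5% of all genes lower past the 2-fold rule described with the ratios. Most of the Control level came from cells with erythroid RNA. In Control 437 of the 2814 cells had at least 5 UMIs per 10000 of Car1 and Klf1, a carbonic anhydrase and a transcription factor of red cell precursors, and these held 1196 of the 1341 Abcg2 UMIs, at 105 CPM (99.2 to 111). The other libraries had 1 to 5 such cells. Without such cells Abcg2 stood at 10.7 CPM in Abcg2-MDS/AML and 11.3 CPM in Control, a ratio of 0.948 (0.750 to 1.2), beside 8.01% of all genes higher and 8.42% lower. In cells with no UMI of either gene it stood at 10.6 CPM in Abcg2-MDS/AML and 6.65 CPM in Control, a ratio of 1.60 (1.21 to 2.13), so the direction outside the definitions turned with the handling of erythroid cells. Both splits were made after the level in Control had been seen. Erythroid RNA went with Abcg2 also inside the MSC class of one pair: the 7 erythroid markers summed to 1825 CPM in Abcg2-positive and 144 CPM in Abcg2-negative MSC of NHD13Tg, and to 1136 CPM in Abcg2-positive and 91.5 CPM in Abcg2-negative MSC of WT_A1. In Control the erythroid sums were 200.3 CPM and 194 CPM. Markers of myeloid and other blood cells went the other way in the first pair. They summed to 31.5 CPM in Abcg2-positive and 696 CPM in Abcg2-negative MSC of NHD13Tg, and to 26.9 and 2892 CPM in WT_A1. In Control they summed to 1248 CPM in Abcg2-positive and 656 CPM in Abcg2-negative MSC. With MSC limited to cells holding at most 2 UMIs of erythroid and other blood markers, Abcg2 stood at 40.2 CPM in NHD13Tg and 46.1 CPM in WT_A1, and at 33.3 CPM in Abcg2-MDS/AML and 79.5 CPM in Control, so that the MSC levels were as high without those cells.

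**Figure D1:**
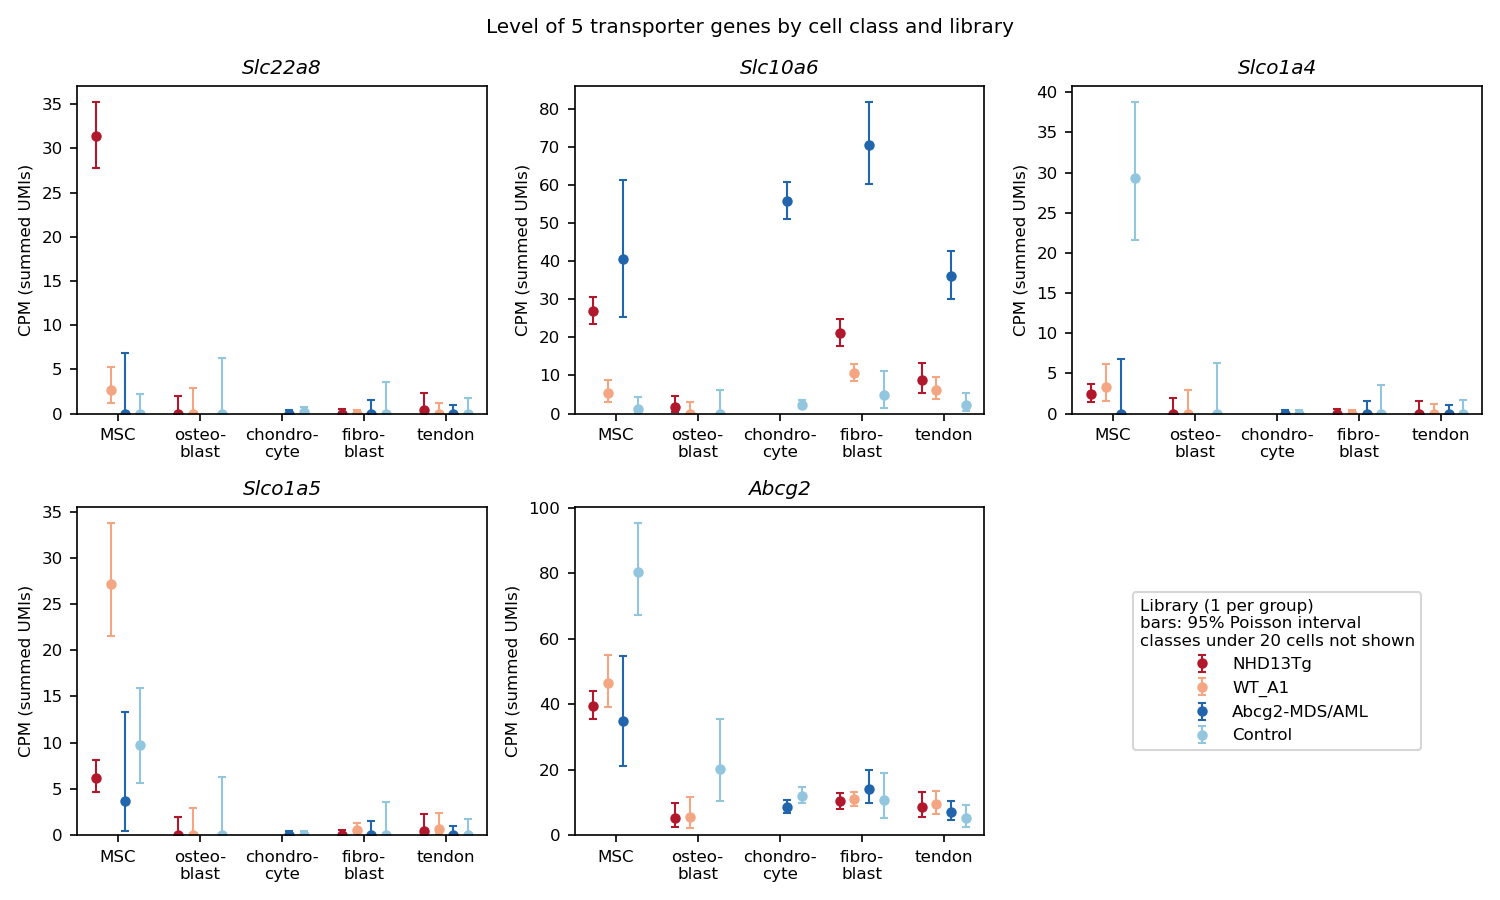
Level of each gene (vertical axes, CPM of summed UMIs, linear) in 5 stromal classes, 1 point per library with its 95% Poisson interval; classes with under 20 cells are not drawn. Slc22a8, Slco1a4 and Slco1a5 lie near 0 outside MSC and peak in NHD13Tg, Control and WT_A1 in that order, Slc10a6 is high in all drawn classes of Abcg2-MDS/AML, and Abcg2 is highest in MSC of every library.

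The question of how NHD13Tg MSC differ from WT_A1 MSC was asked of each carrier as a ratio of CPM with an exact conditional interval. A gene with at least 20 CPM in one library, at least 2-fold apart and with an interval leaving out 1 was counted. Over all 6169 genes considered in MSC, 1.2% passed higher and 2.25% lower in NHD13Tg. Of the 5 transporters 4 reached 20 CPM, and 2 passed higher and 1 lower, counts that follow from how the genes were chosen. Slc22a8 was 11.7-fold higher (5.85 to 27.4) and Slc10a6 5.02-fold higher (3.02 to 8.92), whereas Slco1a5 was 4.39-fold lower (3.08 to 6.32). The ratio of Slco1a4 was 0.717 (0.323 to 1.71) and that of Abcg2 0.85 (0.696 to 1.04), intervals that include 1. With 1 library per group, these are differences between libraries, with no replicate check and no p-value.

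Among the 5 classes Slc22a8 and Slco1a5 had UMIs enough for a ratio with both limits only in MSC, since the others held 0 to 5 UMIs. Fibroblasts had 0 Slco1a5 UMIs in NHD13Tg and 5 in WT_A1. With 3 counts in place of the 0 the ratio was 0.755, and the interval reached 1.37. In cells outside the definitions Slc22a8 had 8 UMIs in NHD13Tg and 1 in WT_A1, a ratio of 9.79 (1.31 to 434), and in free RNA 18 in NHD13Tg and 3 in WT_A1, a ratio of 5.16 (1.51 to 27.3). Slco1a5 ratios there, 0.489 (0.0466 to 2.99) and 0.688 (0.137 to 3.2), have intervals that include 1. Slc10a6 could be compared in more classes: its ratio was 2.00 (1.54 to 2.61) in fibroblasts, just under the 2-fold line, 1.40 (0.717 to 2.75) in tendon cells and 2.18 (1.56 to 3.09) in cells outside the definitions. Of all genes 0.285% passed higher and 0.819% lower in fibroblasts of this pair, 0.624% and 1.59% in tendon cells, and 0.76% and 0.636% in cells outside the definitions. Free RNA gave an Slc10a6 ratio of 2.47 (1.07 to 6.39). The ratio in MSC was the largest of these, and the difference between classes was not tested. Abcg2 had ratios of 0.950 (0.693 to 1.30) in fibroblasts, 0.917 (0.497 to 1.67) in tendon cells and 0.944 (0.324 to 2.92) in osteoblasts, where 2.06% of genes passed higher and 1.8% lower.

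In the Abcg2 pair the MSC difference was broad: 7.3% of 6601 genes passed higher and 11.7% lower in Abcg2-MDS/AML. Of the transporters 3 reached 20 CPM, of which 1 passed higher and 2 lower. Slc10a6 was 33.2-fold higher (8.17 to 291), resting on 2 UMIs in Control. Slco1a4 was 5.3-fold lower with 3 counts set in place of the 0 in Abcg2-MDS/AML, and its counting interval reached 4.15-fold lower. Abcg2 was 2.30-fold lower (1.42 to 3.94). The Slco1a5 ratio of 0.377 (0.0421 to 1.61) rests on 2 UMIs in Abcg2-MDS/AML, and Slc22a8 had none in either library. With MSC of both libraries held to a score of 10 to 50 (148 and 160 cells), a restriction added after the scores had been seen, Slc10a6 was 13.8-fold higher (3.36 to 121) and Abcg2 2.03-fold lower, with a ratio of 0.492 (0.269 to 0.861). Scores still differed within that range. A score of 10 to 20 was held by 100 cells of Abcg2-MDS/AML and 32 of Control, and the rest lay at 20 to 50. The part of this remaining difference was not tested. Slco1a4 in these cells had 0 UMIs in Abcg2-MDS/AML and 9 in Control. With 3 counts in place of the 0, Slco1a4 was 2.29-fold lower, which leaves out counting error in Control. With an MSC threshold of 30, where 23 cells of Abcg2-MDS/AML were left against 346 of Control, its 0 UMIs against 46 gave no direction.

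Unlike the MSC carriers, Slc10a6 differed in every class of the Abcg2 pair that could be compared. The ratio was 24.4 (15.3 to 41.6) in chondrocytes, 14.6 (6.12 to 45.4) in fibroblasts and 15.5 (6.49 to 48.6) in tendon cells. Of all genes 3.51% passed higher and 14.9% lower in chondrocytes, 6.78% and 14.5% in fibroblasts and 7.72% and 10% in tendon cells. The median log2 ratio of all genes was -0.31 in chondrocytes, -0.26 in fibroblasts and -0.017 in tendon cells, small beside these ratios. Of 826 chondrocytes of Abcg2-MDS/AML 314 (38.0%) held Slc10a6, at a median depth of 10893 UMIs, against 16 of 971 (1.65%) in Control, at 7277 UMIs. Abcg2 had ratios of 0.713 (0.522 to 0.971) in chondrocytes, 1.33 (0.659 to 2.91) in fibroblasts and 1.39 (0.663 to 3.12) in tendon cells of the same pair, none past the 2-fold line.

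**Figure D2:**
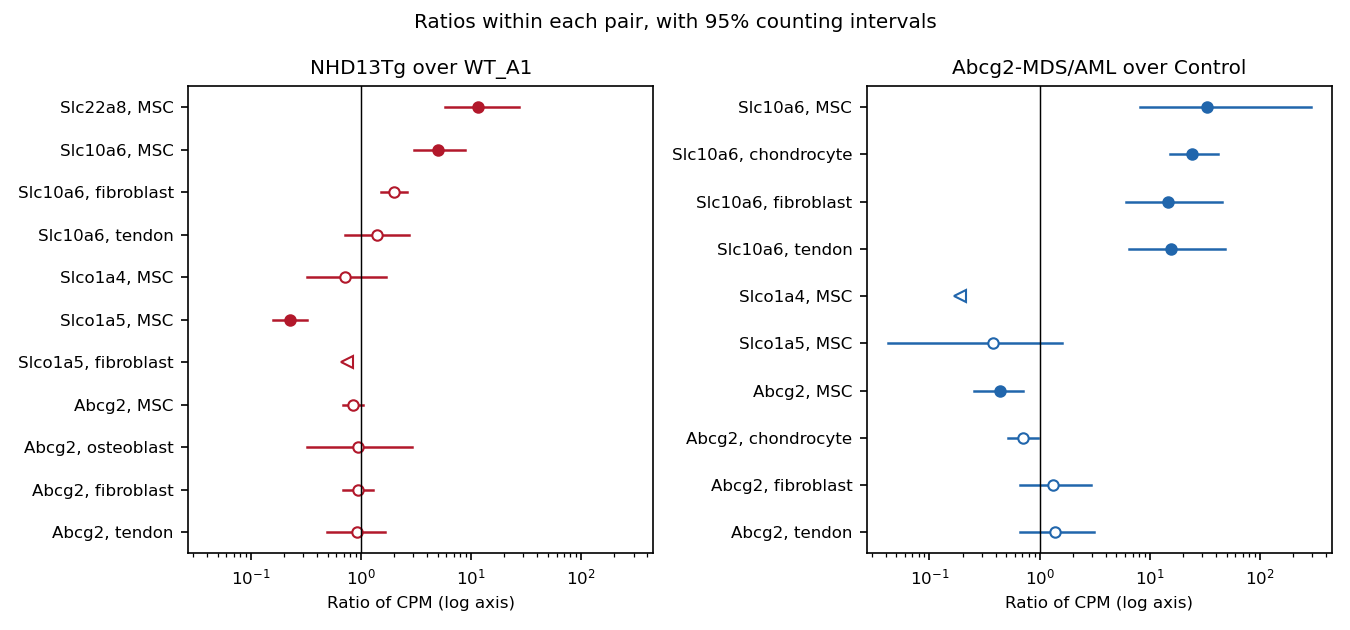
Ratio of CPM (log axis) for each gene and class with enough counts, NHD13Tg over WT_A1 on the left and Abcg2-MDS/AML over Control on the right, with 95% counting intervals; filled points pass the 20 CPM and 2-fold rule, and open arrowheads are upper bounds against 0 counts. Slc10a6 lies right of 1 in all classes of both panels, from 1.40 in tendon cells to 33.2 in MSC. Abcg2 outside MSC lies between 0.713 and 1.39. Slco1a4 and Slco1a5 lie left of 1. Their intervals include 1 apart from Slco1a5 in MSC on the left and Slco1a4 in MSC on the right.

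In the library where each was highest, Slc22a8, Slco1a4 and Slco1a5 were higher in bands with more RNA of the MSC markers. The score sums the 3 genes that define the class, and cells meeting another definition were left out. In NHD13Tg Slc22a8 stood at 0.206, 8.60, 22.0, 30.04 and 39.4 CPM in bands of 0 to 5, 5 to 10, 10 to 20, 20 to 50 and at least 50 UMIs per 10000. The band just outside the threshold of 10 thus held 6 UMIs in 129 cells and the one just inside 26 UMIs in 211 cells. Slco1a5 in WT_A1 stood at 0.242, 5.65, 20.4, 26.9 and 35.8 CPM in the same bands, and Slco1a4 in Control at 0, 0, 13.3, 13.0 and 41.0 CPM. Above the threshold neighbouring intervals overlapped, apart from the last pair of Slco1a4 bands (5.23 to 26.8 and 29.2 to 56.1 CPM). Where the genes were low the order was less clear, as for Slco1a5 in NHD13Tg, at 0.103, 1.43, 4.23, 7.18 and 4.87 CPM. Inside the MSC class the markers did not all go with the carrier: Slc22a8-positive MSC of NHD13Tg held more Adipoq than negative ones (2693 against 2101 CPM) but less Lepr (725 against 905 CPM) and Esm1 (916 against 972 CPM).

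Abcg2 was higher with the score in NHD13Tg and WT_A1, and was counted below the threshold too. In WT_A1 it stood at 9.76, 16.9, 32.3, 38.6 and 93.6 CPM by band and in NHD13Tg at 9.36, 24.4, 33.0, 38.5 and 45.6 CPM. In the top band the NHD13Tg level (37.2 to 55.3) lay below the WT_A1 level (68.8 to 124), while in the other bands the intervals of these libraries overlapped. The other pair showed no steady order: Abcg2 stood at 9.55, 40.4, 22.2 and 60.7 CPM in the first 4 bands of Abcg2-MDS/AML, and at 55.9, 3.87, 39.8, 78.1 and 88.4 CPM in the 5 bands of Control, whose first band holds the erythroid cells. Slc10a6 showed little relation to the score in Abcg2-MDS/AML, with 35.5, 21.0, 38.8 and 42.5 CPM in the first 4 bands. In NHD13Tg it stood at 9.36 and 12.9 CPM below the threshold and at 25.4, 29.3 and 22.1 CPM above it. Slc22a8 was higher in NHD13Tg than in WT_A1 in each band above the threshold (22.0 against 1.70, 30.04 against 2.64 and 39.4 against 3.98 CPM).

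**Figure D3:**
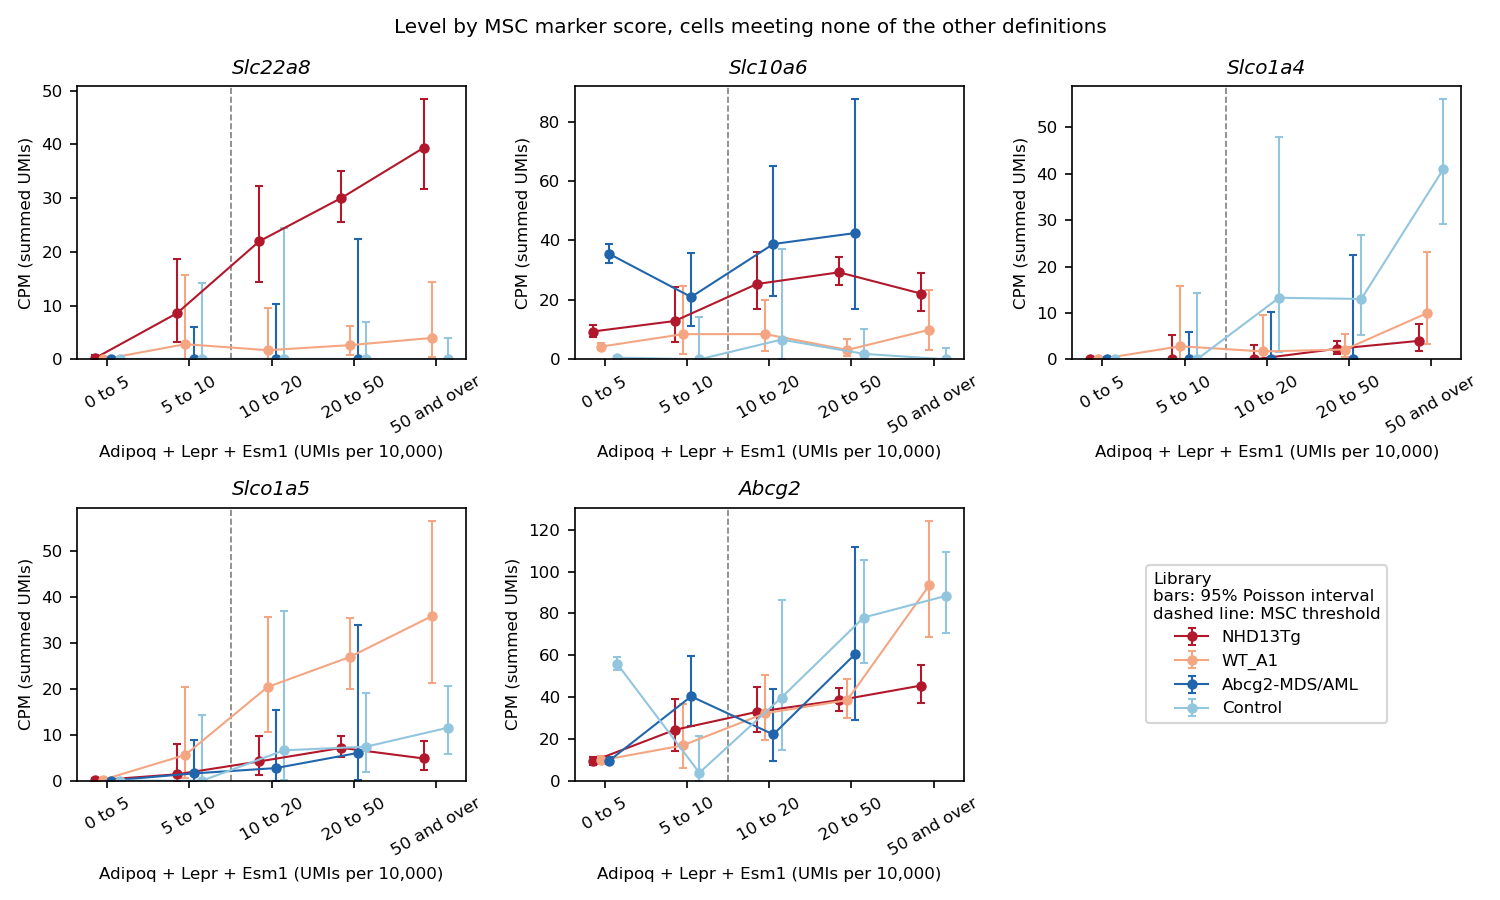
Level of each gene (CPM, linear axes) in 5 bands of the summed MSC marker score (UMIs per 10000), 1 line per library with 95% Poisson intervals; the dashed line is the MSC threshold of 10, and bands with under 20 cells are not drawn. Slc22a8 climbs to 39.4 CPM in NHD13Tg, Slco1a5 to 35.8 CPM in WT_A1 and Slco1a4 to 41.0 CPM in Control, and the first Abcg2 point of Control, at 55.9 CPM, is a band with many cells that hold erythroid RNA.

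Single MSC seldom held more than one of the carriers at this depth. With each cell thinned to 2000 UMIs, 1465 of 1803 MSC of NHD13Tg held none of the 5 genes, 316 held 1 and 22 held 2. In WT_A1 533 of 631 held none and 94 held 1, 3 held 2 and 1 held 3, and in Control 341 of 417 held none, 71 held 1 and 5 held 2. In Abcg2-MDS/AML 134 of 154 held none and 20 held 1. Of the 109 Slc22a8-positive MSC of NHD13Tg, 2 also held Slc10a6 (1.83%, exact binomial interval 0.223% to 6.47%), against 85 of the 1694 others (5.02%). Abcg2 was found in 7 of these 109 cells (6.42%, 2.62% to 12.8%) and in 128 of the others (7.56%). In Control 4 of 20 Slco1a4-positive MSC held Abcg2 (interval 5.73% to 43.7%), against 50 of 397 others (12.6%). The intervals include the share of the other cells in each of these pairs, so neither joint nor exclusive use was resolved.

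The genes whose profile was most like each carrier were read by Pearson correlation of log2(CPM + 5) over the 17 sums of a library and class with at least 20 cells, among 7899 genes with at least 20 CPM in a sum. The sums share libraries and depth, so r is given as a description with no p. Slc22a8 was nearest to Rgs20 (r = 0.88), Mrap (0.842) and Acer2 (0.832), and Slco1a4 to Gbp6 (0.925), Tmem178 (0.917) and Gpr171 (0.909). Slc22a8 was high only in MSC of NHD13Tg (31.4 CPM) and Slco1a4 only in MSC of Control (29.3 CPM). Their r values therefore rest largely on those sums. Slco1a5 was nearest to Crym (0.99), Gpr50 (0.965) and Hsf2bp (0.946). Crym, which encodes a thyroid hormone-binding crystallin, stood at 7.90 CPM in MSC of NHD13Tg and 32.2 CPM in those of WT_A1, and at 5.53 CPM in Abcg2-MDS/AML and 14.6 CPM in Control. Slc10a6 was nearest to Zbtb16 (0.895), Fkbp5 (0.892) and Il6ra (0.87), and Abcg2 to Iigp1 (0.968), Whsc1l1 (0.951) and Ralgapa1 (0.949). Fkbp5, which encodes a chaperone of steroid receptors, stood at 99.5 CPM in MSC of Abcg2-MDS/AML and 12.8 CPM in those of Control, and at 52.7 CPM in NHD13Tg and 54.3 CPM in WT_A1. Mrap, which encodes an accessory protein of melanocortin receptors, stood at 170 CPM in MSC of NHD13Tg and 53.0 CPM in those of WT_A1.

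Related genes were tested between classes, in lists that were drawn up with earlier results of these data known. In 4 lists of 114 genes that hold none of the 5 carriers, sums per library and class were compared by edgeR's quasi-likelihood test, MSC against the mean of the other 4 classes, with library as a term and Benjamini-Hochberg adjustment over 11726 genes. MSC were higher in 26% of all genes tested and lower in 21.4%, with a median log2 fold of 0.012 over all of them. The 17 sums come from 4 libraries, the chondrocyte sums only from the Abcg2 pair and the osteoblast sums not from Abcg2-MDS/AML. Of the listed genes 57 passed the filter on low counts, and 22 were higher and 6 lower in MSC. Of the 5 carriers, Slc10a6, Slco1a5 and Abcg2 passed that filter and Slc22a8 and Slco1a4 did not, and no p is given for any of them.

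Uptake carriers were often higher in MSC than in the mean of the other 4 classes. Of 13 tested among 40, 8 were higher and 1 lower, beside 26% and 21.4% of all genes. Their median log2 fold was 1.07. A call against that mean does not place MSC above each class. Slco3a1 was higher by log2 1.31 ± 0.18 (SE, edgeR adjusted p = 3e-05) with 54.8 CPM in MSC and 61.3 CPM in fibroblasts, since the contrast is to the mean of the classes. Slco2a1, the prostaglandin carrier, was higher by 2.43 ± 0.84 (edgeR adjusted p = 0.0296), with 29.7 CPM in MSC and 37.3 CPM in fibroblasts. Its MSC level was 86.6 CPM in Abcg2-MDS/AML and 7.67 to 14.1 CPM in the other libraries. That call also rests on the libraries: the edgeR adjusted p was 0.0698 without WT_A1 and 0.129 without Control. Slc22a15 was higher by 0.85 ± 0.22 and was above every other class in all 4 libraries. Slc22a23 was lower by log2 -1.58 ± 0.54 (edgeR adjusted p = 0.0264) at 0.425 CPM in MSC, a call lost without NHD13Tg (adjusted p = 0.0602), without WT_A1 (0.0659), without Abcg2-MDS/AML (0.17) and without the library term (0.0578).

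Of the efflux pumps 1 of 7 tested among 22 was higher and 0 lower by edgeR, beside 26% and 21.4% of all genes, also 0 at an unadjusted p under 0.05 and 0 by DESeq2, and a median of 0.47. The gene was Abcc5, an exporter of cyclic nucleotides and organic anions, at 52.6 CPM over the MSC sums and 13.1 to 27.2 CPM in the other classes (log2 1.04 ± 0.21, edgeR adjusted p = 0.000821). Abcc1, the multidrug resistance protein, and Abca1, the cholesterol exporter, did not pass (log2 0.22 ± 0.24 and -0.0076 ± 0.20). Neither did Abcb1a or Abcb1b, which encode the P-glycoproteins of the mouse, at 3.47 and 14.0 CPM in MSC.

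Steroid and sulfate genes went both ways: of 26 tested among 36, 8 were higher (30.8%) and 5 lower (19.2%), shares close to the 26% and 21.4% of all genes, with a median of 0.31. Esr1, an oestrogen receptor gene, was higher by log2 1.89 ± 0.19 (edgeR adjusted p = 1.45e-06), and its level in MSC exceeded every other class in all 4 libraries. Sult1a1, a sulfotransferase gene, averaged 72.9 CPM in MSC and 1.23 to 13.6 CPM elsewhere (log2 3.59 ± 0.44). Hsd17b11 was higher by 0.79 ± 0.11. The genes of the sulfate donor enzymes Papss1 and Papss2 were lower by log2 -0.35 ± 0.13 and -1.45 ± 0.29, the second with 27.7 CPM in MSC and 404 CPM in chondrocytes. Nr3c1, the glucocorticoid receptor, was lower by -0.28 ± 0.096 at 112 CPM in MSC, and Hsd17b10 by -0.58 ± 0.14. Several of the lower calls rest on single libraries. Nr3c1 lost its call whichever library was left out (edgeR adjusted p 0.075 to 0.101), and Papss1 lost it without NHD13Tg (0.175), WT_A1 (0.172) or Abcg2-MDS/AML (0.0809).

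Xenobiotic and lipid sensing genes had 5 of 11 tested among 16 higher and 0 lower by edgeR, beside 26% and 21.4% of all genes. The lower count was also 0 at an unadjusted p under 0.05 and 0 by DESeq2, and the median was 0.31. Cyp1b1, which encodes a cytochrome that oxidises oestrogens and aromatic hydrocarbons, averaged 706 CPM over the MSC sums, 89.9 CPM in fibroblasts and 2.59 to 17.95 CPM in the other classes (log2 5.78 ± 0.34, edgeR adjusted p = 8.6e-09). Pparg, the adipogenic nuclear receptor gene, was higher by 6.48 ± 0.34 and Nr1h3, the oxysterol receptor gene, by 2.31 ± 0.19. Nfe2l2, the oxidative stress regulator, was higher by 0.64 ± 0.13 at 182 CPM, and all 4 of these genes were above every other class in each library. Ahr, the aryl hydrocarbon receptor gene, was the other one called, and its fibroblast mean (11.3 CPM) was above that of MSC (8.30 CPM).

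**Figure D4:**
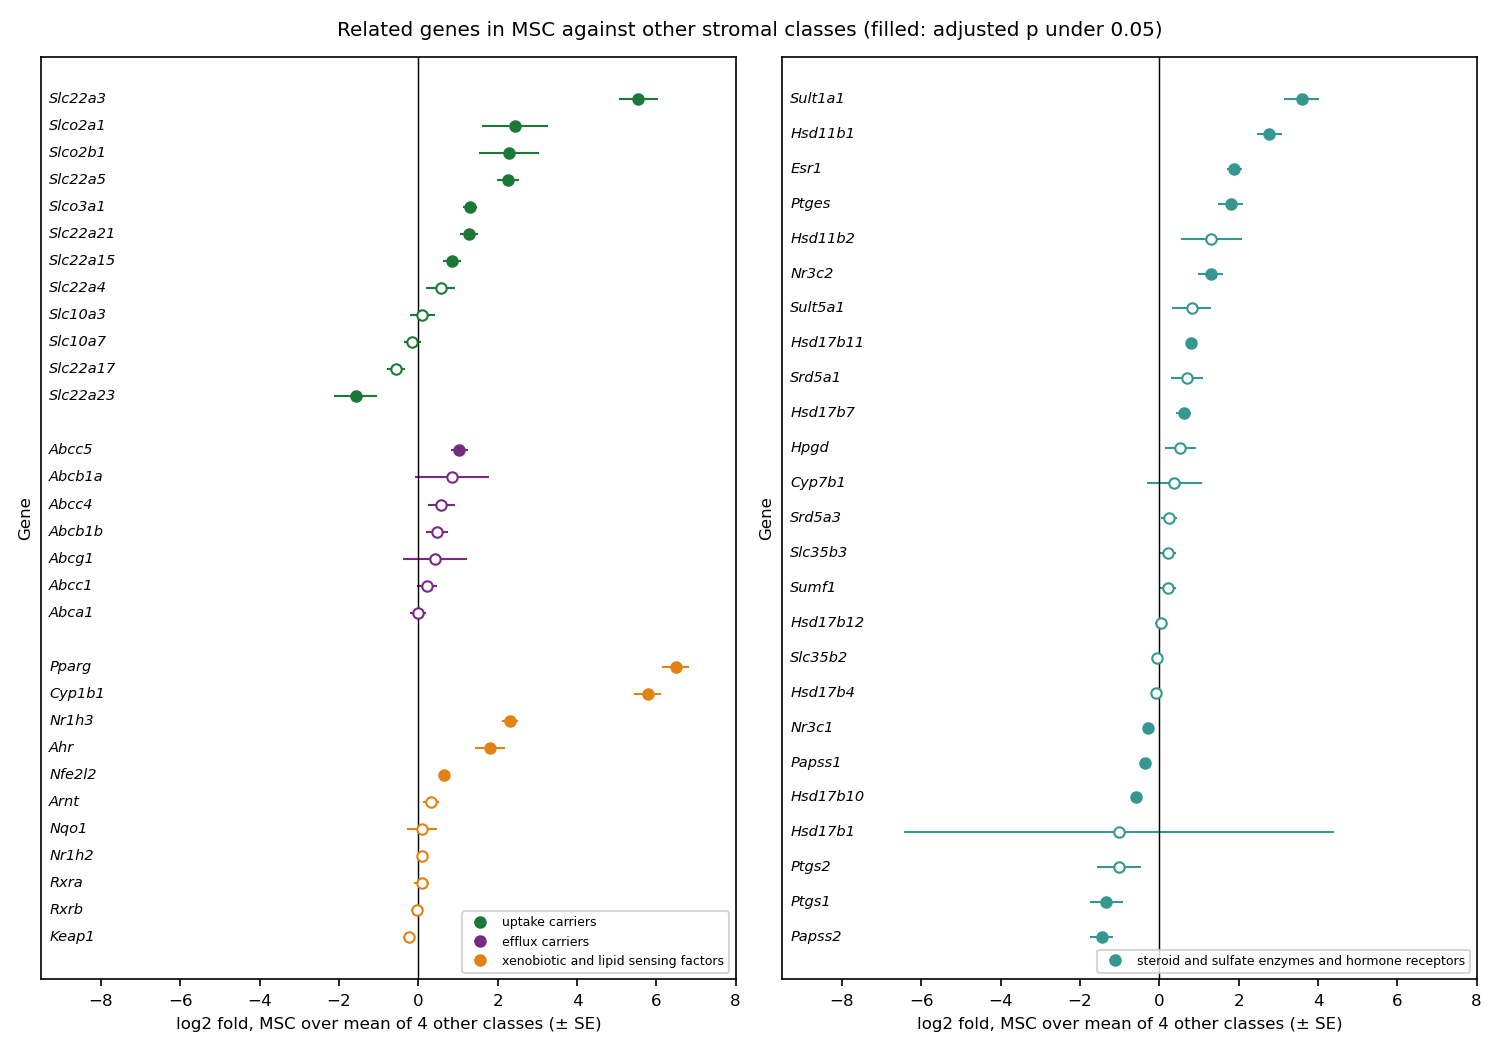
log2 fold of MSC over the mean of 4 other classes (horizontal axis, ± SE) for tested genes of 4 related lists, with the carrier and sensing lists on the left and the steroid and sulfate list on the right; filled points have an edgeR adjusted p under 0.05. Pparg (6.48), Cyp1b1 (5.78), Slc22a3 (5.55) and Sult1a1 (3.59) lie furthest right.

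Within the pairs the same lists gave few differences in NHD13Tg and more in Abcg2-MDS/AML. In NHD13Tg MSC 29 listed genes reached 20 CPM in a library, of which 0 passed higher and 1 lower, beside 1.2% and 2.25% of all genes. Their median log2 ratio was -0.0086, that of all genes -0.048. This was Ptges, a prostaglandin E synthase gene, at 12.1 CPM in NHD13Tg and 28.8 CPM in WT_A1. In the Abcg2 pair 36 reached it, 5 higher and 6 lower, beside 7.3% and 11.7%, with a median of 0.059, that of all genes being -0.059. Higher in Abcg2-MDS/AML were Slco2a1 (86.6 against 10.4 CPM), Cyp7b1, an oxysterol hydroxylase gene (27.6 against 1.22 CPM), Hsd11b1, which encodes the enzyme that reactivates glucocorticoids (60.8 against 22.6 CPM), Abcc1 (33.2 against 12.8 CPM) and Ptgs1 (20.3 against 3.66 CPM). Lower were Slco3a1 (33.2 against 78.1 CPM), Abcc5 (24.0 against 81.2 CPM), Papss1 (18.4 against 57.4 CPM), Hsd17b7 (3.69 against 26.2 CPM), Ptgs2 (25.8 against 90.9 CPM) and Pparg (22.1 against 103 CPM). The weaker MSC score of Abcg2-MDS/AML moved with these values too, and its part in them was not tested.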

How the data were processed

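The deposited matrices hold raw UMI counts per gene and barcode, made by the authors with Cell Ranger 3.1.0 per the submitters' processing notes, which also name Seurat 3.2.3. Libraries were Chromium 3′ v3.1, per the labels' protocols. The sources used here name no genome build for the counts. Barcodes in the matrices are unfiltered, and cells were picked with the thresholds in the report. Cells meeting several definitions (2.9% to 16.5% per library) were left out, which stands in for a doublet caller; none was run. Cells meeting none made up 26.1% to 54.6%. Counts were summed per library and class and scaled to CPM. Levels carry exact Poisson, shares Clopper-Pearson and ratios conditional binomial intervals at 95%, which cover counting error only. Against 0 counts a bound was computed with 3 counts over the summed class of the library, which leaves out counting error in the other library.

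Class sums with at least 20 cells were tested with edgeR 4.0.16 in R 4.3.3 (TMM, filterByExpr, quasi-likelihood, 9 residual degrees of freedom, Benjamini-Hochberg threshold 0.05), after the script had been tested on simulated data. DESeq2 1.42.0 was an alternative. With library as a term, these p-values set the differences between classes against their scatter over the libraries that hold each class. MSC, fibroblasts and tendon cells had sums from 4 libraries, osteoblasts from 3 and chondrocytes from 2. No source gives how many animals each library came from. Other steps used Python 3.11.15, numpy 2.4.6, scipy 1.17.1 and pandas 2.3.3. Named were the 5 carriers, up to 4 called genes per list and direction with the highest CPM over the MSC sums, every listed gene past the 2-fold rule in a pair, the 3 nearest profiles per carrier, the markers and Xist, a rule set with the lists. Slc22a3, Ahr, Abcc1, Abca1, Abcb1a and Abcb1b were named after their values were seen. The members and lists were chosen with earlier results of these data known. A few genes of the lists and markers, and results that need them, are not reported here.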

Additional observations from a re-analysis of the deposited data

Results flagged for a closer look

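Slc10a6 also differed in material that no class of the report uses. In cells outside the 5 definitions it stood at 34.9 CPM in Abcg2-MDS/AML (497 UMIs in 2951 cells) and 0.578 CPM in Control (14 UMIs in 2814 cells), a ratio of 60.4 (35.7 to 111). Among all genes of these cells 15% passed the 2-fold rule higher in Abcg2-MDS/AML. The 437 cells of Control with Car1 and Klf1 hold 0 Slc10a6 UMIs among 11377419, and without such cells the levels were 35.0 CPM in Abcg2-MDS/AML and 1.09 CPM in Control, a ratio of 32.1 (19.0 to 59.2), beside 8.01% of genes higher. In barcodes with 1 to 100 UMIs it had 105 UMIs in Abcg2-MDS/AML and 3 in Control, a ratio of 45.6 (15.2 to 225). Both were listed because the signal lies outside the main measurement and above the level in Control.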

How the results depend on the processing

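Ratios of the carriers in MSC were recomputed under 12 alternatives (UMI minimum, mitochondrial limit, class definition and threshold, scaling, thinning, leaving out the cell with most UMIs, and the restrictions by score and by blood markers added after seeing the data). Of 108 values 104 moved by less than the counting interval. The exceptions all concern Slco1a4 in the Abcg2 pair, whose log2 bound was -2.41: it was -0.61 with at least 4000 UMIs, -1.88 with thinned cells, -1.19 with a score of 10 to 50, and 0.22 with an MSC threshold of 30, where 0 UMIs in 23 cells against 46 in 346 give a bound above 0 that holds no information on direction. Ratios whose interval includes 1 crossed a log2 of 0 as well: Slco1a5 of the Abcg2 pair reached 0.35 with the threshold of 30, and Abcg2 of the NHD13 pair 0.017 with a score of 10 to 50.

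Thinning to 2000 UMIs lowered shares of positive MSC, to 6.05% in NHD13Tg and 0.317% in WT_A1 for Slc22a8, 4.83%, 0.951% and (Control) 0% for Slc10a6, 0.333% in NHD13Tg and 4.80% in Control for Slco1a4, 1.28% and 4.91% for Slco1a5, and 7.49%, 9.67%, 5.19% and 12.9% for Abcg2; Slc10a6 in Control then had 0 CPM. Genes past 2-fold numbered 74 higher and 139 lower in the NHD13 pair, 41 and 58 with at least 50 CPM and 216 lower with 10 CPM; in the Abcg2 pair 482 and 770, and 227 and 426 with 50 CPM.

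Between classes, uptake carriers lower in MSC numbered 1, or 2 with DESeq2 or with relative log expression factors, 0 without a library term and 0 to 1 with a library left out (0 without NHD13Tg, WT_A1 or Abcg2-MDS/AML). Steroid and sulfate genes lower numbered 5, or 3 without a filter or without a library term, and 2 to 5 with a library left out (2 without NHD13Tg, 3 without WT_A1 or Abcg2-MDS/AML). Over all lists 6 were lower, or 3 without a library term and 2 to 6 with a library left out; over all genes 2514, or 1657 (without WT_A1) to 2649. Counts higher in MSC moved by less than 1.5 times. No paired analysis was possible because each group has 1 library. Among called list genes, 227 values kept their call under an alternative and 25 lost it. The few UMIs of Slco1a4 and Slco1a5 in Abcg2-MDS/AML and of Slc10a6 in Control limit those ratios most.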
